A study of Schizosaccharomyces pombe with 24 samples.

Results

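The 120 genes described here are the late genes of quiescent wild-type fission yeast (Schizosaccharomyces pombe): genes whose RNA stood higher a day after nitrogen was removed than before and soon after its removal. They were chosen on measured values, as CPM, the reads of a gene scaled to a common total of gene reads per library, in wild-type cells. A gene had to average at least 20 CPM at 24 h without nitrogen, at least 3 times its mean at 0 h and at least 1.5 times its mean at 1 h. Non-coding RNAs, the SPAC869 genes and 4 other loci (map2, map3, mei2 and the thiamine gene SPCC1223.02) were left out by the rule. Of 6877 genes in the files, 179 met these conditions. The 120 with the highest ratio of 24 h to 1 h were kept, and 118 of them are annotated as protein coding. That ratio ran from 1.92 to 639.61 with a median of 2.84. The last genes inside were sec73 (1.932), gpa1 (1.928) and SPBC21B10.15 (1.919), and the first outside were SPAC4G8.04 (1.915), SPCC132.03 (1.906) and isp7 (1.899).

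Cells carrying the allele clr4D::NatMX6 in a 975 h+ background, called clr4D, and wild-type 975 h+ cells, called wt, grew at 32 °C in minimal medium (EMM) with adenine, histidine, leucine, lysine and uracil. They were washed into EMM without nitrogen (-N) and sampled at 0, 1, 2, 4, 10 and 24 h, with 2 libraries per strain and time, which gives 12 groups and 24 libraries. The clr4 gene encodes the histone H3 lysine 9 methyltransferase of heterochromatin, and h+ is a single mating type, plus (P). The labels do not say how many clones stand for each strain or how the replicates were grown apart, so p-values measure the spread between these libraries, which may be technical.

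When fission yeast cells run out of nitrogen they finish their divisions and arrest before replicating DNA. With a partner of the other mating type they mate, enter meiosis and form spores. Without one they stay as single quiescent cells that can live for weeks on recycled nitrogen, taken in by permeases and freed by catabolic enzymes, with GATA-type transcription factors among the regulators of this switch.

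Each library held 637723 to 4427020 gene reads, with a median of 1436782, and the libraries of the same group had a Pearson r over genes between 0.958 and 0.99 on log2 levels. The lowest r belonged to wt 4 h, where replicate 2 stood apart: its 19 ribosomal protein genes summed to 20400 CPM, against 8470 in replicate 1. The clr4 feature itself had 130 to 433 reads in the 12 clr4D-labelled libraries and 57 to 478 in the 12 wt libraries, so its level (112 to 427 CPM and 89.3 to 172 CPM) does not check the label. Which part of the gene the allele removes is not given in the sources used here. Levels below are CPM after TMM scaling (trimmed mean of M values), which corrects for a few genes taking a large share of a library. This matters for the choice of the genes: with TMM-scaled values 71 of the 120 would still meet the 3 conditions.

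By annotation the 120 genes fall into 23 transporters, 17 transcription factors and nutrient signalling proteins, 17 mating and meiosis genes, 19 metabolic enzymes, 24 genes of other annotated function and 20 uncharacterized genes. These roles were assigned with the values in view, so counts within a role describe the genes and test nothing. On chromosome III lay 32 of the 118 annotated members (27.1%, against 18% of the coding genes tested), with 49 on chromosome I (41.5% against 45.3%) and 37 on chromosome II (31.4% against 36.7%). Among them 9 pairs were direct neighbours, such as fil1 and mug4, gaf1 and dad5, and fub2 and nrg1. An annotated gene on the opposite strand overlapped 103 of the 118, and an overlapping coding gene did so for 32, among them psu2, spn6, spk1, uga1, ptr2, rec25 and mcp7. Whether the counting used strand is not given, so reads of such partners cannot be told apart from those of the members.

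**Figure D1:**
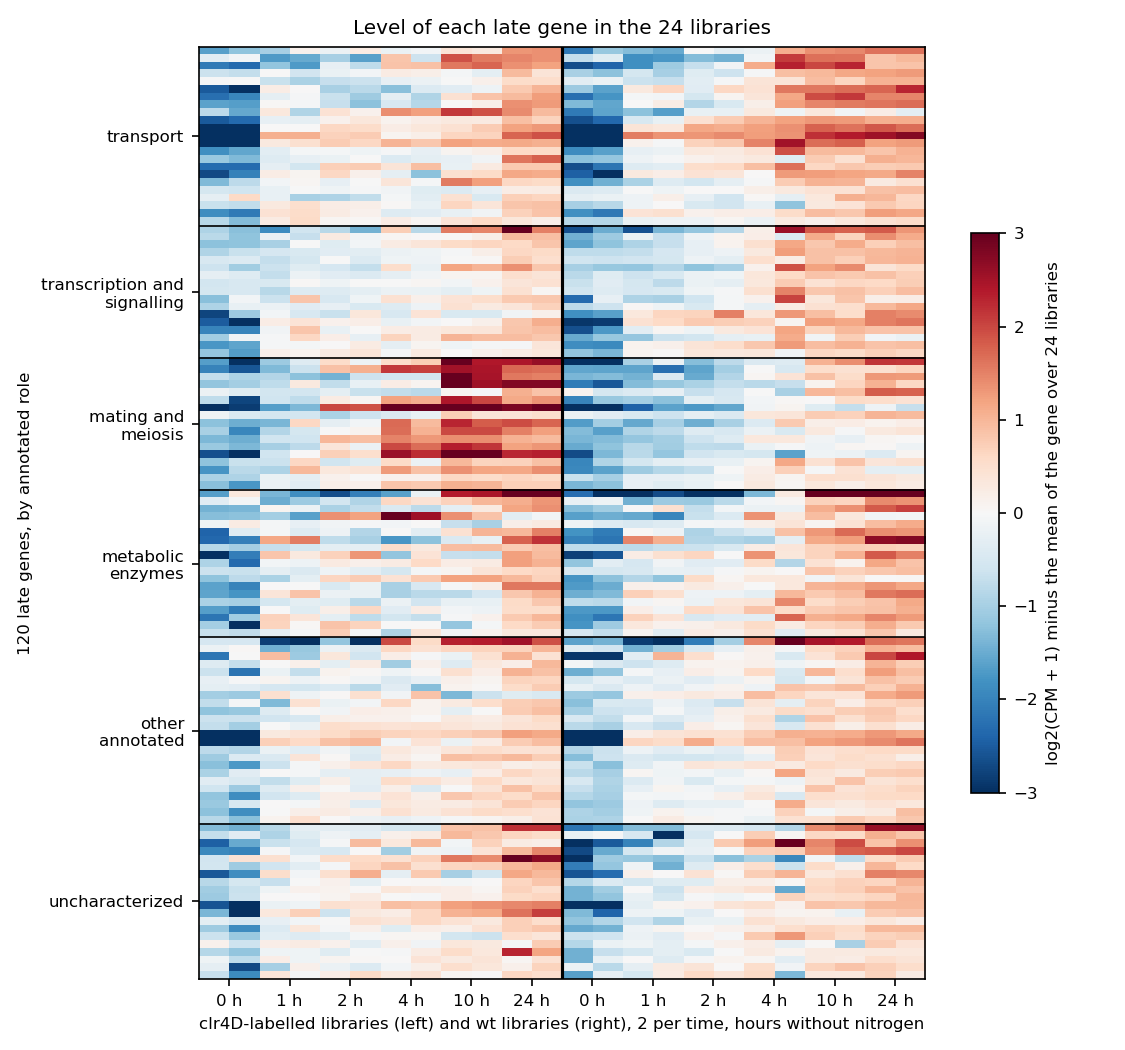
Level of each of the 120 late genes (rows, grouped by role) in the 24 libraries (columns; clr4D left, wt right, 2 per time, hours without nitrogen), as log2(CPM + 1) minus the mean of the gene over all libraries, with colors saturating at the ends of the scale. Most rows run from blue at 0 h to red at 24 h in both strains, and the mating and meiosis block is reddest in clr4D at 10 h.

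In the wt libraries that chose them, the late genes span different courses, given here as description. The steepest was psu2, a cell wall protein annotated as a beta-glucosidase. Its level in wt was 4.51 and 2.40 CPM at 0 h, 1.18 and 3.19 at 1 h, 0.58 and 0.79 at 2 h, 9.59 and 31.6 at 4 h, 385 and 482 at 10 h, and 1013 and 1199 at 24 h. The gene was thus nearly silent for 2 h, with 3 reads in all in the wt 2 h libraries, and reached its highest level at the last time. SPBC19C7.04c, for an uncharacterized protein, stood in wt at 70.4 and 90 CPM at 0 h, 131 and 132 at 1 h, 243 and 243 at 2 h, 230 and 176 at 4 h, 874 and 1034 at 10 h, and 1988 and 2063 at 24 h. Others were already high early: isp4, an oligopeptide transporter, stood at 64.1 and 70.8 CPM in wt at 0 h, 2630 and 2358 at 1 h, 7663 and 8313 at 10 h, and 5501 and 5838 at 24 h. The mean level was highest at 24 h for 80 of the 120 genes in wt, at 10 h for 18, at 4 h for 20 and at 2 h for 2. The 20 that were highest at 4 h include genes whose replicate 2, the library that stood apart, lay far above replicate 1. The F-box protein gene pof15 had 174 and 716 CPM there, and the transcription factor gene SPAC2H10.01 had 25.2 and 136 CPM.

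Late against early libraries that took no part in the choice gave a first test. Between 10 h and 2 h in wt, 75 of the 120 late genes were higher and 0 lower in edgeR's quasi-likelihood test (adjusted p under 0.05), where 13.4% of the 5664 genes tested were higher and 13.7% lower. The median log2 change was 0.72 for the late genes and 0.00 for all genes. At an unadjusted p under 0.05 the edgeR test also had 0 lower, as did DESeq2 after adjustment. Transporters rose in 18 of 23 cases, transcription and signalling genes in 13 of 17, mating and meiosis genes in 12 of 17, enzymes in 11 of 19, other annotated genes in 13 of 24 and uncharacterized genes in 8 of 20.

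The gene fah2, for a fatty-acid amide hydrolase, shows that the course need not be monotonic. Its level in wt was 30.7 and 27.6 CPM at 0 h, 361 and 271 at 1 h, 70.1 and 68.9 at 2 h, 64.0 and 106 at 4 h, 283 and 311 at 10 h, and 830 and 894 at 24 h. After a first peak at 1 h it thus fell back and rose again. The change from 2 h to 10 h was 2.09 ± 0.20 in the edgeR test (log2 and SE, adjusted p = 6.16e-08). That the level at 24 h exceeded the one at 1 h follows from the rule. Ptr2, a peptide transporter, had 2681 and 3214 CPM at 10 h against 411 and 617 at 2 h in wt (2.52 ± 0.32, adjusted p = 9.04e-06). SPBC409.08, for a spermine family transporter, changed by 3.04 ± 0.58 (adjusted p = 0.00176) and pof15 by 3.88 ± 0.67 (adjusted p = 0.00101). Of the 45 genes that did not pass, dbl3 had 14.1 and 6.64 CPM at 10 h against 13.3 and 15.4 CPM at 2 h, and the histone H3 gene hht2 had 1433 and 1320 CPM against 1036 and 934 CPM.

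In clr4D the late genes also rose by 24 h. Of the 120, 114 were higher and 0 lower at 24 h than at 0 h, against 25.4% and 29.3% of all genes tested, with a median log2 change of 1.94 against -0.01 for all genes. At 24 h against 1 h, 90 were higher and 0 lower, against 18.1% and 22.9% of all genes, with medians of 0.97 and -0.01. DESeq2 also called 0 lower in both, and at an unadjusted p under 0.05 edgeR had 0 and 1 lower. The comparisons share the clr4D 24 h libraries and are not independent of each other. Scaling by library totals alone, which moves the median of all genes by 0.58 and 0.45, makes these counts 120 and 109.

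Among the genes with the highest levels at 24 h in wt, fil1, a GATA-type factor that regulates amino acid synthesis genes, had 4105 and 3958 CPM in clr4D at 24 h against 1438 and 1677 CPM at 0 h (1.37 ± 0.24, adjusted p = 3.53e-05). The amino acid transporter gene isp5 had 2019 and 2132 CPM at 24 h against 41.8 and 45.8 CPM at 0 h in clr4D (5.58 ± 0.23, adjusted p = 2.80e-15). It rose again between 1 h, at 876 and 880 CPM, and 24 h (1.24 ± 0.18, adjusted p = 4.86e-06). In clr4D psu2 had 530 and 426 CPM at 24 h against 9.42 and 6.42 CPM at 1 h (5.91 ± 0.47, adjusted p = 5.32e-08). Its 2 libraries at 0 h, with 7.66 and 32.7 CPM, lay further apart than those of any other early time in clr4D.

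In clr4D 6 late genes were not called higher at 24 h than at 0 h: SPAC513.07, scr1, nab3, dbl3, SPBC530.02 and SPAC9.11. Their estimated log2 changes were all above 0, from 0.21 ± 0.15 for SPAC513.07 to 1.60 ± 0.69 for scr1. SPAC513.07, of a reductase family, had 109 and 117 CPM at 24 h against 89.1 and 116 CPM at 0 h in clr4D. By the rule every late gene stood higher at 24 h than at 0 h in wt, so no contrast with wt is drawn here. The poly(A)-binding protein gene nab3 had 44.6 and 41.7 CPM at 24 h in clr4D against 80.7 and 51.3 CPM at 1 h (-0.61 ± 0.27, adjusted p = 0.0723). The gene for the glucose-responsive repressor scr1 varied too widely to resolve, with 39.7 and 89.4 CPM in clr4D at 0 h and 104 and 391 CPM in wt at 4 h. Near the lower end of the change from 1 h to 24 h in clr4D were also sec73 (-0.01 ± 0.18), trp1322 (-0.17 ± 0.15) and spx2 (0.17 ± 0.14), none of which passed the test.

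**Figure D2:**
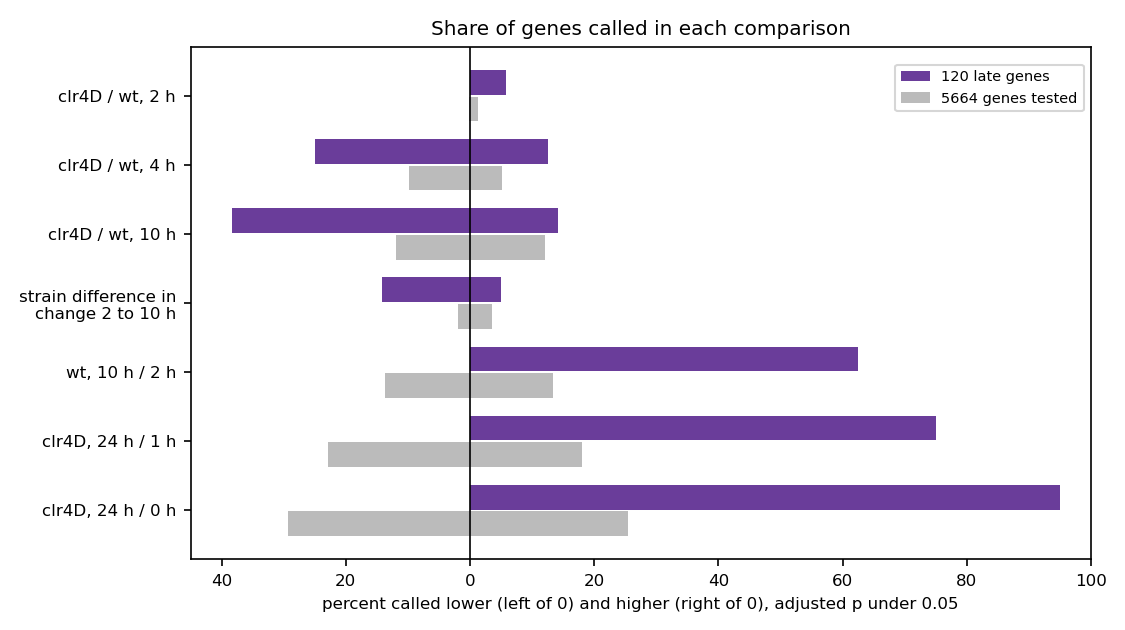
Percent of genes called higher (right of 0) or lower (left of 0) at an adjusted p under 0.05 in 7 comparisons, for the 120 late genes (purple) and for all 5664 genes tested (grey). In the comparisons over time the late genes were called only higher, and between the strains at 10 h 38.3% of them were lower, against 12% of all genes. The genes were chosen in wt alone, which can tilt the shares between the strains.

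Before and just after nitrogen removal no late gene was called between the strains: 0 of 120 in either direction at 0 h and at 1 h, where 0.194% and 0.459% of all genes were higher and 0.0353% and 0.212% lower in clr4D. The wt libraries of these times chose the genes, so nothing is read from these counts. At 2 h, in libraries that did not, 7 late genes were higher in clr4D and 0 lower, against 1.32% and 0.23% of all genes. At an unadjusted p under 0.05 edgeR had 12 lower, and DESeq2 called 2. Without wt 2 h replicate 2, 4 genes were higher. The 7 were shk2, ste6, spk1, num1 and mug4, all of the mating and meiosis group, with omt2 and SPCC737.04. The calls of mug4 and num1 at 2 h were lost without clr4D replicate 1 and without either wt library, and that of mug4 also without clr4D replicate 2. With 4 genes left without wt 2 h replicate 2, a further call was lost in that run. For SPCC737.04 the calls under the alternatives are not listed here.

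At 4 h 15 late genes were higher and 30 lower in clr4D, against 5.19% and 9.82% of all genes, and at 10 h 17 were higher and 46 lower, against 12% and 12%. The median log2 difference of the late genes was 0.04 at 2 h, -0.30 at 4 h and -0.35 at 10 h. For all genes it was 0.00, -0.03 and -0.02. The genes were chosen for a late rise in wt alone, which can favour genes that are lower in clr4D at late times. The balance of lower and higher genes is thus not independent of the choice, although these libraries took no part in it. Of the 17 genes higher at 10 h, 13 were among the 15 higher at 4 h, and of the 46 lower at 10 h, 25 were among the 30 lower at 4 h. The 4 h counts depend on the fit: without wt 4 h replicate 2 they were 13 and 25, without clr4D 4 h replicate 1 there were 15 lower genes, and scaling by library totals alone gave 17 and 15. With only the 4 libraries of that time in the fit they were 8 and 0. At 10 h, leaving out clr4D replicate 1 left 29 genes lower.

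**Figure D3:**
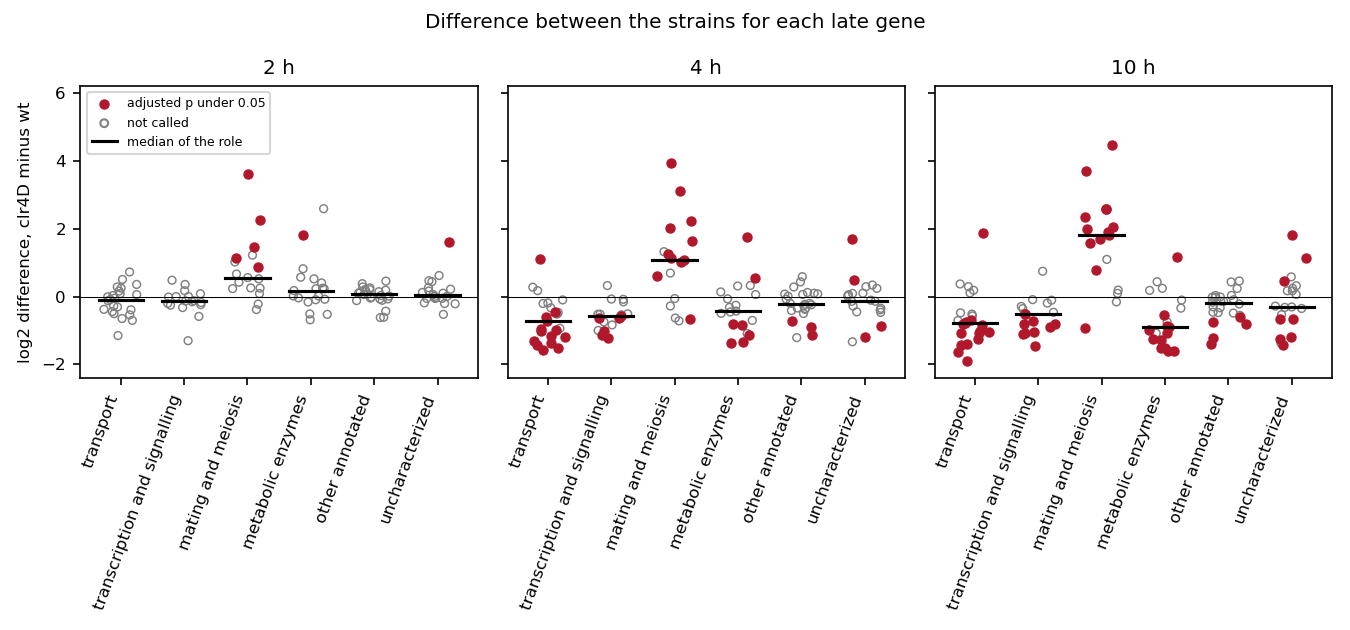
Log2 difference clr4D minus wt (vertical axis) of each late gene at 2, 4 and 10 h, by role; red points passed an adjusted p of 0.05, open points did not, and the bar is the median of the role. At 10 h the median of the mating and meiosis genes was 1.83, and those of transport, transcription and signalling, and enzymes were -0.77, -0.52 and -0.91.

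Transporters were, in number, the group with most genes lower in clr4D. Beside the role counts below stand the shares of all genes, higher and lower. They were 1.32% and 0.23% at 2 h, 5.19% and 9.82% at 4 h, and 12% and 12% at 10 h. At 10 h 14 of 23 were lower and 1 higher (median -0.77), and at 4 h 13 were lower and 1 higher (median -0.71). The amino-acid permease gene nrg1 had 563 and 580 CPM in clr4D at 10 h against 1653 and 1873 CPM in wt (-1.62 ± 0.17, adjusted p = 1.21e-07). Over the course it stood in clr4D at 762 and 760 CPM at 1 h, 582 and 618 at 2 h, 382 and 410 at 4 h and 1218 and 1365 at 24 h. In wt it stood at 1047 and 931 CPM at 1 h, 906 and 975 at 2 h, 866 and 919 at 4 h and 2119 and 2436 at 24 h. At 2, 4 and 10 h no clr4D library reached either wt library of its time. The wt libraries of 1 h and 24 h chose the genes, so nothing is read from those times.

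The gene isp5 had 1192 and 1485 CPM in clr4D at 10 h against 2976 and 2694 CPM in wt (-1.08 ± 0.17, adjusted p = 4.85e-05), and per1, another amino acid permease gene, had 706 and 686 CPM against 1411 and 1383 CPM (-1.01 ± 0.17, adjusted p = 6.81e-05). Both were lower at 4 h as well, with log2 differences of -1.02 ± 0.17 and -0.95 ± 0.17. The urea transporter gene SPBC23G7.13c had the largest fall of the late genes at 10 h, with 44.7 and 50.4 CPM in clr4D against 170 and 181 CPM in wt (-1.89 ± 0.35, adjusted p = 0.000851). SPCC965.13, annotated as a pyridoxal family transporter, had 355 and 399 CPM against 969 and 1042 CPM (-1.42 ± 0.24, adjusted p = 9.54e-05). In all 4 of these genes the libraries of the strains did not overlap at 10 h.

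For the ammonium transporter gene amt1 the levels at 10 h were 937 and 997 CPM in clr4D against 1708 and 1741 CPM in wt (-0.83 ± 0.28, adjusted p = 0.0320), a call that was lost without any one of these 4 libraries. The difference of amt1 at 4 h (-1.50 ± 0.28, adjusted p = 0.00109) includes 3379 CPM in wt replicate 2, against 1189 CPM in wt replicate 1. Not called at 10 h were isp4, with 5557 and 5197 CPM against 7663 and 8313 CPM (-0.57 ± 0.25), and ptr2, with 1991 and 2236 CPM against 2681 and 3214 CPM. SPBC409.08 had 519 and 406 CPM in clr4D at 10 h against 434 and 426 CPM in wt, and the glycerophosphodiester transporter gene tgp1 had 300 and 321 CPM against 516 and 495 CPM (-0.71 ± 0.33, adjusted p = 0.141). The 1 transporter gene that was higher in clr4D, at 4 h and at 10 h, was SPBC36.02c, of a spermidine transporter family, with 120 and 104 CPM against 33.8 and 25.4 CPM at 10 h (1.86 ± 0.23, adjusted p = 1.46e-06).

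A wider list of 18 tested amino acid and nitrogen transport genes holds 7 of the late genes. Of the other 11, 0 were higher and 6 lower in clr4D at 10 h, against 12% and 12% of all genes, with a median of -0.54. From 2 h to 10 h in wt 2 of these 11 rose and 1 fell, near the shares of all genes, 13.4% and 13.7%.

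Among the 17 transcription and signalling genes 10 were lower and 0 higher in clr4D at 10 h (median -0.52), and 6 lower and 0 higher at 4 h. The fil1 gene had 2606 and 3037 CPM in clr4D at 10 h against 4932 and 4878 CPM in wt (-0.80 ± 0.23, adjusted p = 0.0145). The call was lost without clr4D 10 h replicate 1 and without either wt 10 h library. The gene for Gaf1, a GATA factor that acts below the nutrient-sensing kinase TOR, had 414 and 485 CPM against 598 and 678 CPM (-0.51 ± 0.17, adjusted p = 0.0351). For sfp1, a transcription factor gene, the values were 299 and 340 CPM against 653 and 675 CPM (-1.06 ± 0.22, adjusted p = 0.000943). The zinc-cluster factor gene SPAC11D3.17 had 193 and 214 CPM against 450 and 429 CPM (-1.12 ± 0.16, adjusted p = 1.05e-05). SPAC2H10.01, the factor gene with the steepest late course in wt, had 67.0 and 63.0 CPM in clr4D at 10 h against 81.2 and 77.4 CPM in wt and was not called (-0.29 ± 0.62). The genes gaf1, sfp1 and SPAC11D3.17 were named after their values were seen.

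The enzymes showed 11 of 19 genes lower and 1 higher in clr4D at 10 h (median -0.91). The psu2 gene had 140 and 146 CPM in clr4D at 10 h against 385 and 482 CPM in wt (-1.59 ± 0.29, adjusted p = 0.000591). At 4 h it had 7.75 and 22.4 CPM against 9.59 and 31.6 CPM and was not called. Fah2 had 94.9 and 111 CPM against 283 and 311 CPM (-1.53 ± 0.19, adjusted p = 2.16e-06). At 1 h, its first peak, it had 288 and 373 CPM in clr4D and 361 and 271 CPM in wt. Nothing is read from the strains at that time, because its wt libraries chose the genes. The gene uga1, for the transaminase that breaks down 4-aminobutyrate, had 69.2 and 85.9 CPM against 212 and 234 CPM (-1.53 ± 0.26, adjusted p = 0.000345). The glyoxylase gene hsp3105 had 7.26 and 7.09 CPM against 20 and 26.5 CPM (-1.62 ± 0.44, adjusted p = 0.00799), a difference lost without clr4D 10 h replicate 1.

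The enzyme gene that was higher at 10 h was gal10, for a sugar epimerase, with 63.7 and 63.8 CPM in clr4D against 24.7 and 35.4 CPM in wt (1.17 ± 0.22, adjusted p = 0.000264), lost without wt 10 h replicate 1. The gene omt2, annotated as a biopterin dehydratase, behaved differently in time, with a peak at 4 h of 679 and 457 CPM in clr4D against 199 and 94.8 CPM in wt (1.77 ± 0.25, adjusted p = 0.000176). It was higher in clr4D at 2 h too (1.82 ± 0.28, adjusted p = 0.000933), but at 10 h it had 201 and 140 CPM against 148 and 97.3 CPM and was not called. The hydrolase-like gene fsh2 was higher in clr4D at 4 h, with 694 and 609 CPM against 424 and 472 CPM (0.55 ± 0.18, adjusted p = 0.0443). This call was lost without either clr4D library or without wt replicate 1, and at 10 h fsh2 had 723 and 899 CPM against 723 and 706 CPM.

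Mating and meiosis genes moved the other way. At 10 h 12 of 17 were higher in clr4D and 1 lower (median 1.83), at 4 h 10 were higher and 1 lower (median 1.09), and at 2 h 5 were higher and 0 lower (median 0.56). Signalling genes of mating were among them, named with roles known in this yeast: shk2 for a kinase of the PAK family, ste6 for the exchange factor that activates Ras1, spk1 for the MAP kinase of the pheromone pathway, and gpa1 for the G protein subunit of the pheromone receptors. The shk2 gene in clr4D stood at 9.75 and 13.1 CPM at 0 h, 30.9 and 38.5 at 1 h, 402 and 376 at 2 h, 1518 and 1434 at 4 h, 1542 and 1536 at 10 h, and 714 and 859 at 24 h. In wt it stood at 7.22 and 8.40 CPM at 0 h, 17.7 and 31.9 at 1 h, 29.6 and 33.2 at 2 h, 92.3 and 106 at 4 h, 76.9 and 60.8 at 10 h, and 89.7 and 61.9 at 24 h. The log2 difference was 3.62 ± 0.21 at 2 h (adjusted p = 6.89e-12), 3.93 ± 0.20 at 4 h (4.10e-13) and 4.45 ± 0.20 at 10 h (4.03e-14).

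Ste6 was called at the same 3 times. At 10 h it had 550 and 526 CPM in clr4D against 138 and 132 CPM in wt (1.99 ± 0.16, adjusted p = 1.07e-09). Spk1 had 1192 and 1187 CPM against 420 and 379 CPM (1.57 ± 0.14, adjusted p = 1.30e-08), and gpa1 had 448 and 433 CPM against 270 and 241 CPM (0.78 ± 0.13, adjusted p = 7.83e-05). For all of these the strains were apart at 4 h and 10 h with no overlap of libraries.

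Of the genes with meiotic roles, most of those that differed at 10 h were called at 4 h already. At 4 h the log2 difference was 3.12 ± 0.25 for mug4 (adjusted p = 1.64e-09), 2.02 ± 0.16 for num1 (1.81e-09), 1.64 ± 0.22 for rec25 (9.90e-06) and 1.24 ± 0.24 for mcp3 (0.000976). Those of spn6 (1.13 ± 0.35, 0.0323) and mug24 (1.01 ± 0.33, 0.0415) were lost without any one of the 4 libraries. The fzr2 gene was called at 10 h and not at 4 h. This gene, for a meiotic activator of the anaphase-promoting complex, had 202 and 78.8 CPM in clr4D against 25.5 and 19.9 CPM in wt at 10 h (2.59 ± 0.31, adjusted p = 2.25e-06), with 8.71 and 8.78 CPM against 13.8 and 18.1 CPM at 4 h. The mug24 gene, for an RNA-binding protein, had 166 and 114 CPM against 20.4 and 29.9 CPM at 10 h (2.59 ± 0.22, adjusted p = 3.32e-09). The spn6 gene, for a septin of sporulation, had 224 and 131 CPM against 50.2 and 64.1 CPM (1.70 ± 0.24, adjusted p = 1.62e-05). The num1 gene, for the anchor of dynein during meiotic nuclear movements, had 380 and 329 CPM against 66.7 and 77.4 CPM (2.33 ± 0.15, adjusted p = 2.38e-11). Of 2 genes known by their meiotic expression, mug4 had 297 and 240 CPM against 20.8 and 19.9 CPM (3.71 ± 0.22, adjusted p = 4.27e-12), and mcp3 had 194 and 144 CPM against 35.3 and 53.1 CPM (2.04 ± 0.21, adjusted p = 7.30e-08). At 10 h both clr4D libraries lay above both wt libraries in each of these 6 genes.

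The gene pat1, for the kinase that holds back meiosis, had 540 and 388 CPM in clr4D against 123 and 127 CPM in wt at 10 h (1.90 ± 0.42, adjusted p = 0.00505), a call lost without replicate 1 of either strain. The meiosis gene that was lower at 10 h was mcp7, with 48.6 and 44.1 CPM against 91.4 and 86.3 CPM (-0.94 ± 0.18, adjusted p = 0.000425), and at 4 h the RNA-binding protein gene mpf2 was lower. Not called at 10 h were mpf2, with 252 and 198 CPM against 257 and 247 CPM, rmr1, with 292 and 279 CPM against 270 and 265 CPM, and also msa1 and ste7. In clr4D the mean level of 13 of these 17 genes was highest at 10 h and of 3 at 24 h.

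Markers of mating and meiotic cells moved with this group. The summed level of 6 markers of minus (M) cells was 7540 and 9100 CPM in clr4D at 10 h against 130 and 132 CPM in wt, and at 2 h 2270 and 2220 CPM against 128 and 152 CPM. The 3 markers of plus (P) cells summed to 7050 and 6560 CPM against 770 and 809 CPM at 10 h. The 10 markers of meiosis and sporulation, of which spn6 is also a late gene, summed to 374 and 326 CPM in clr4D at 4 h against 146 and 149 CPM in wt, and to 14400 and 6860 CPM against 195 and 217 CPM at 10 h. Among the defining markers mat1-Mi was at 0 reads in all groups, and mei3 was at 0 reads in wt at 10 h. Multi-mapped reads were left out, so 0 reads of mat1-Mi do not show that its RNA was absent. In the clr4D 10 h libraries replicate 1 held more meiotic marker RNA than replicate 2, as it did for fzr2. The part of these cells in the differences was not tested, and in bulk RNA fewer cells of a type and less RNA per cell cannot be told apart.

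In the wider lists, 18 of the 22 other mating genes tested and 34 of the 36 other meiosis and sporulation genes were higher in clr4D at 10 h. There were 1 and 0 lower, with medians of 2.39 and 4.95, and of all genes 12% were higher and 12% lower. Of the same 36 meiosis genes, 1 was higher and 0 lower at 10 h than at 2 h in wt, against 13.4% and 13.7% of all genes. The 19 ribosomal protein genes summed to 4640 and 5570 CPM in clr4D at 10 h against 9080 and 8570 CPM in wt, 7 of them called lower, and to 6020 and 6710 CPM against 8470 and 20400 CPM at 4 h. This list thus moved in the same direction as the transporters and enzymes among the late genes, and its part in their differences was not tested.

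**Figure D4:**
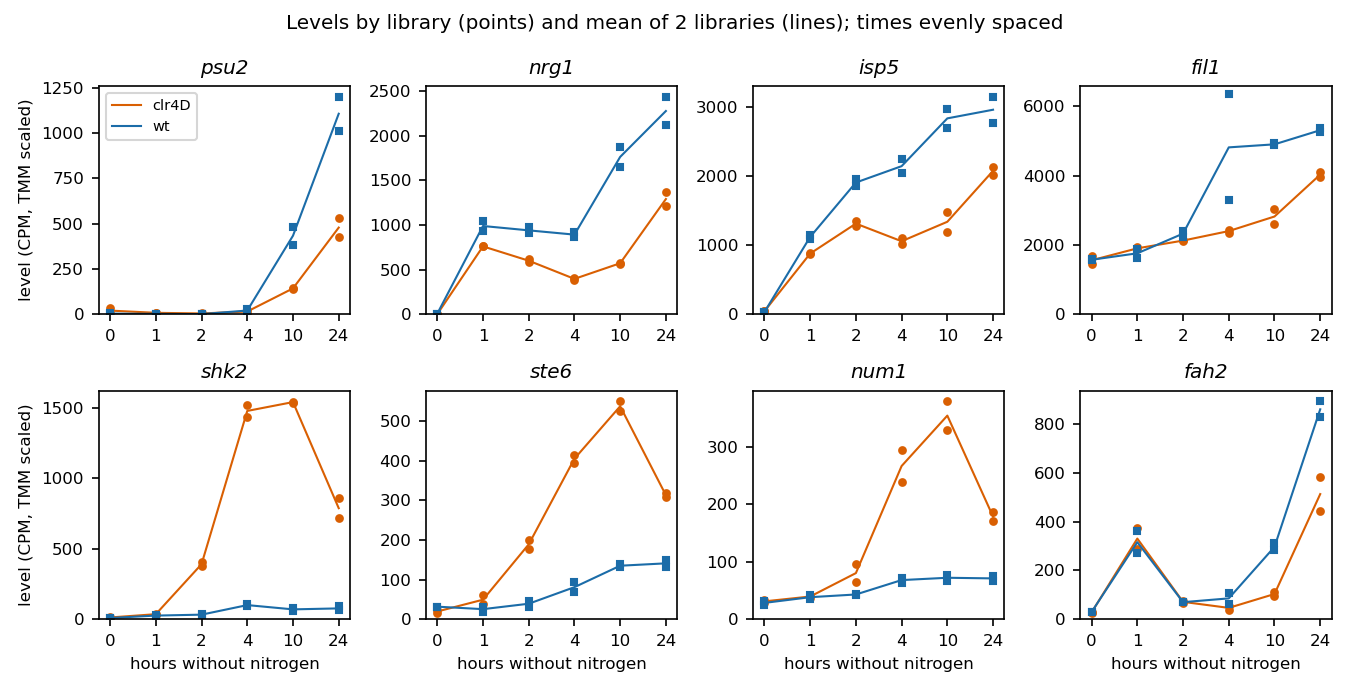
Level (CPM after TMM scaling, vertical axes from 0) of 8 late genes against hours without nitrogen, drawn at even spacing; circles and orange lines are clr4D, squares and blue lines wt, with a point for each library and lines through the mean of 2. For psu2, nrg1, isp5, fil1 and fah2 the clr4D points lie under the wt points at 10 h, and for shk2, ste6 and num1 above them.

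Of the 24 late genes with other annotated functions, 5 were lower and 0 higher in clr4D at 10 h. Of the 20 uncharacterized genes 5 were lower and 3 higher. Of all genes tested 12% were lower and 12% higher, so the 3 higher genes (15%) lie near that share. Nab3 had 21.8 and 36.2 CPM in clr4D against 73.8 and 76.3 CPM in wt (-1.41 ± 0.26, adjusted p = 0.000306). SPBC19C7.04c had 593 and 605 CPM against 874 and 1034 CPM (-0.67 ± 0.17, adjusted p = 0.00442), lost without clr4D replicate 1 or wt replicate 2. The other direction is shown by the uncharacterized gene SPCC737.04, with 87.7 and 78.0 CPM against 27.1 and 16.6 CPM (1.81 ± 0.28, adjusted p = 6.17e-05), called at 2 h and 4 h as well. Its calls under the alternatives are not listed here. The strains were close for pof15, with 317 and 325 CPM in clr4D against 354 and 330 CPM in wt at 10 h, and for eos1, a protein glycosylation gene, with 37.4 and 37.8 CPM against 35.7 and 38.7 CPM. Hht2 was not called at 10 h, with 927 and 1266 CPM against 1433 and 1320 CPM.

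Both autophagy genes among the late genes belong here: atg12, for a ubiquitin-like modifier, had 19.6 and 26.0 CPM in clr4D at 10 h against 36.5 and 26.5 CPM in wt, and atg1802, for a lipid-binding protein, had 117 and 103 CPM against 94.2 and 92.9 CPM. Neither was called, and none of the 25 other autophagy genes tested was called at 10 h, where 12% of all genes were higher and 12% lower. In clr4D 21 of these 25 were higher at 24 h than at 0 h, against 25.4% of all genes.

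At 24 h 19 late genes were higher and 20 lower in clr4D, against 5.63% and 3.16% of all genes. The wt libraries of this time chose the genes, so these counts are description and no test. Nothing is read from them or from the levels at 24 h that follow. The psu2 gene had 530 and 426 CPM in clr4D against 1013 and 1199 CPM in wt, nrg1 had 1218 and 1365 CPM against 2119 and 2436 CPM, and isp5 had 2019 and 2132 CPM against 3147 and 2772 CPM. For amt1 the values were 1343 and 1322 CPM against 1568 and 1827 CPM, and for ptr2 they were 1707 and 1544 CPM against 1181 and 1202 CPM. In the mating and meiosis group shk2 had 714 and 859 CPM against 89.7 and 61.9 CPM, and fzr2 had 41.7 and 39.9 CPM against 34.2 and 34.0 CPM. SPAC1039.04, a carboxylic acid transporter gene, had 112 and 124 CPM in clr4D against 226 and 182 CPM in wt at 10 h, where it was called lower, and 406 and 461 CPM against 282 and 267 CPM at 24 h.

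The change from 2 h to 10 h was then compared between the strains. The difference, clr4D minus wt in the signed log2 change, was called above 0 for 6 late genes and below 0 for 17, against 3.48% and 1.92% of all genes tested. The median difference was -0.34, beside -0.03 for all genes. These values rest on the same libraries as the comparisons at 2 h and 10 h. Choosing the genes for a late rise in wt alone can favour values below 0, so nothing is read from the balance of the 2 directions. The values above 0 numbered 3 without clr4D 2 h replicate 2, wt 2 h replicate 2 or clr4D 10 h replicate 1. Those below 0 numbered 7 without clr4D 2 h replicate 2, 11 without wt 2 h replicate 1, 9 without wt 10 h replicate 1, and 5 without wt 2 h replicate 2 or clr4D 10 h replicate 1. The 6 were mug4 (2.57 ± 0.37, adjusted p = 0.000135), mug24 (2.17 ± 0.43, adjusted p = 0.00303), mcp3 (1.48 ± 0.34, adjusted p = 0.0106), num1 (1.46 ± 0.24, adjusted p = 0.000397), rec25 (1.31 ± 0.32, adjusted p = 0.0156), a recombination gene, and SPBC36.02c (1.36 ± 0.37, adjusted p = 0.0284). For rec25 and SPBC36.02c the calls under the alternatives are not listed here. In all 6 the estimated change was above 0 in both strains and larger in clr4D. The values of ste6 and spk1, which were called higher at 2 h, did not pass the test (-0.27 ± 0.24 and 0.11 ± 0.20).

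Among the 17 below 0 were 6 enzymes, 4 transporters and 3 uncharacterized genes. All 17 had an estimated log2 change above 0 in wt, and 13 of them had one below 0 in clr4D. Not all of these 13 fell clearly: pho841 (-0.04 ± 0.26), nrg1 (-0.07 ± 0.17) and omt2 (-0.15 ± 0.26) lay within their SE of 0. For 6 of these 13 (hsp3105, SPAC29B12.13, SPCC569.09, nab3, dad5 and SPAC513.07) the downward change in clr4D was the larger in size. Hsp3105, for one, changed by -1.92 ± 0.44 in clr4D and by 0.52 ± 0.36 in wt. In wt none of these 6 was called higher at 10 h than at 2 h. The wt changes of SPCC569.09 (0.15 ± 0.26) and nab3 (0.13 ± 0.22) lay within their SE of 0. The other 4 of the 17, fah2, SPAC11D3.19, mcp7 and bdp1, had a change above 0 in both strains that was smaller in clr4D. The lowest values were those of hsp3105 (-2.44 ± 0.57, adjusted p = 0.0122), SPAC29B12.13, for a glutathione-dependent enzyme (-1.81 ± 0.39, adjusted p = 0.00786), and SPCC569.09 (-1.80 ± 0.40, adjusted p = 0.0130), each of them lost without clr4D 10 h replicate 1. SPCC569.09 had 40.2 and 55.2 CPM at 10 h against 114 and 175 CPM at 2 h in clr4D, and 102 and 114 CPM against 111 and 83.1 CPM in wt. Fah2 had 94.9 and 111 CPM at 10 h against 75.9 and 65.6 CPM at 2 h in clr4D, and 283 and 311 CPM against 70.1 and 68.9 CPM in wt, a difference of -1.54 ± 0.29 (adjusted p = 0.00211). The psu2 value (-4.18 ± 1.30, adjusted p = 0.0746) did not pass, with 3 reads at 2 h in wt. Within clr4D alone 45 late genes were higher and 8 lower at 10 h than at 2 h, against 13.5% and 15.8% of all genes, and 15 of those higher were among the 17 mating and meiosis genes.

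**Figure D5:**
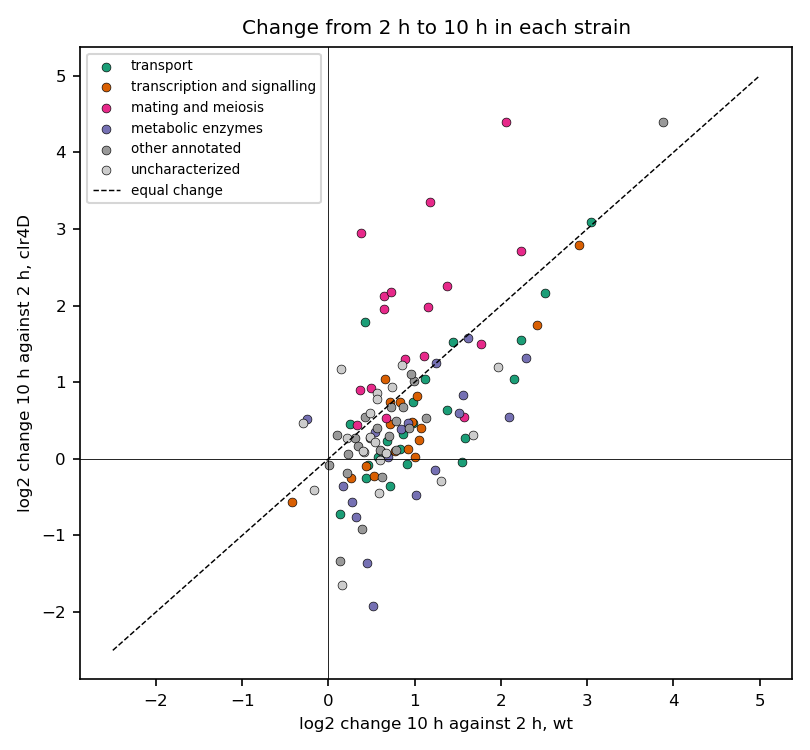
Log2 change from 2 h to 10 h in wt (horizontal) and in clr4D (vertical) for 119 late genes, colored by role, with the line of equal change; psu2 is left out because it had 3 reads at 2 h in wt. Most mating and meiosis genes lie above the line, and most genes of the other roles below it.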

How the data were processed

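The authors deposited read counts for each annotated feature, made with TopHat2 2.0.8 on ASM294v2 and HTSeq 0.6.1, per the submitters' processing notes. Libraries were directional and depleted of ribosomal RNA, per the labels. Neither annotation release nor strand setting is stated in the sources used here. Reads outside features made up 2.09% to 5.14% of each library and multi-mapped reads 5.43% to 12.4%. They stayed out of all totals.

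Genes passing filterByExpr (5664, all 120 late genes included, also without the wt 24 h libraries) were fitted in edgeR 4.0.16 (R 4.3.3) with 12 group means, TMM scaling (factors 0.6946 to 1.263) and robust quasi-likelihood tests, two-sided, with Benjamini-Hochberg adjustment over all genes tested. The script was tested on simulated data. Alternatives used DESeq2 1.42.0, other scalings, no filter, only the groups compared, a replicate block and each library left out.

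Contrasts among wt 0 h, 1 h and 24 h, and between strains at those times, are no test because those wt libraries chose the genes. For the strains at those times, counts of genes under the adjusted p threshold are printed as description only. No p-value of a single gene is given for them. The members, the 13 gene lists and the naming rule were chosen with earlier results of these data known. Named genes were those ranked highest by the selection ratio, level, strain difference or smallest rise in clr4D, members of the lists, and genes at the edge of the selection. A few more were named after their values were seen: SPBC36.02c, SPCC737.04, mcp7, mpf2, rmr1, rec25, SPAC1039.04, gaf1, sfp1 and SPAC11D3.17. The alternatives were run on all genes tested, but the calls that these genes kept or lost are not listed here. A reference of another build, ASM294v3, gave names, chromosomes and neighbours only, so no positions, sequences or promoter motifs are reported.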

Additional observations from a re-analysis of the deposited data

Results flagged for a closer look

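What flagged these results is that the strains differed, by an interaction test, in the signed log2 change of a late gene between 2 h and 10 h. The log2 value of that difference, clr4D minus wt, is given for each gene that passed and falls under the naming rule. In all, 6 late genes were called with a value above 0 and 17 with a value below 0, a balance that choosing the genes in wt alone can tilt. Above 0 were mug4 (2.57), mug24 (2.17), mcp3 (1.48) and num1 (1.46). Those below 0 had a smaller rise, little change or a change downward in clr4D. They were hsp3105 (-2.44), SPAC29B12.13 (-1.81), SPCC569.09 (-1.80), fah2 (-1.54), uga1 (-1.49), nab3 (-1.47), omt2 (-1.39), SPAC513.07 (-1.08) and nrg1 (-0.98). The calls of fah2, SPAC513.07, mug4 and num1 held under each alternative run. Those of the other genes were lost when 1 or more single libraries were left out.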

How the results depend on the processing

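The rule that chose the genes depends on scaling: with TMM-scaled CPM 71 of the 120 genes meet it. Scaling by library totals alone moved the median of all genes at 4 h by 0.259 and gave 15 lower genes there, against 30, and 1 lower gene at 2 h, against 0. At 2 h DESeq2 gave 2 lower genes, the replicate block 1 and a fit of only the groups compared 3. The last fit gave 8 higher and 0 lower genes at 4 h and 33 genes below 0 for clr4D minus wt in the change from 2 h to 10 h, against 17. Leaving out single libraries gave 4 to 5 higher and 0 to 0 lower genes at 2 h, 10 to 15 and 15 to 42 at 4 h, and 13 to 16 and 29 to 41 at 10 h. It gave 94 to 111 higher genes for clr4D at 24 h against 0 h, 70 to 78 higher and 0 to 1 lower against 1 h (1 without clr4D 1 h replicate 2), and 51 to 62 for wt at 10 h against 2 h. For the change from 2 h to 10 h it gave 3 to 7 above 0 and 5 to 15 below 0. Replicate numbers are only numbers in the labels, and deviations of same-numbered libraries correlated at 0.001 to 0.13 in the groups compared. With the replicate block the counts, higher and lower, were 8 and 1 at 2 h, 15 and 36 at 4 h, 18 and 48 at 10 h, and 6 and 23 for the change, with 115, 93 and 77 higher over time. Of 188 results for single genes, the alternatives left 1742 values on the same side of the threshold, 190 lost the call and 0 turned direction. The cause of these shifts was not tested. Low counts limit psu2, fub2, hsp3105, grt1 and nrg1 at their lowest times. Promoter motifs were planned and not run.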
